A study of Mus musculus with 9 samples.

Results

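The genes described here are cell cycle and proliferation genes, a list of 39 symbols chosen by gene function: 10 genes of DNA replication and nucleotide supply, 4 cyclin and cyclin-dependent kinase genes of S and M phase, 8 genes of mitotic kinases, the spindle checkpoint and the chromosomal passenger complex, 3 genes of mitotic ubiquitin ligation, 11 genes of the kinetochore, spindle and cytokinesis, and 3 genes of chromosome structure and repair. The list was made with earlier results of these data known, so its shares set beside those of all genes are descriptions without independent support. Of the 39 symbols, 38 had a row in the table of 22851 genes, and Prc1, which bundles microtubules at the spindle midzone, was not analysed here. RNA-seq was performed on myocardium of male C57BL/6 mice (C57BL/6J in the study's methods) that were 6 to 8 weeks old at the start, with 3 libraries in each of 3 groups. CK (control check) mice received citrate buffer. DCM (diabetic cardiomyopathy) mice received a single intraperitoneal dose of 180 mg/kg streptozotocin, a toxin of the insulin-producing beta cells, and were kept for 12 weeks. SPM mice received 1 mg/kg spermine, a polyamine, every day for 2 weeks before the same streptozotocin dose and every other day during the 12 weeks after it. Streptozotocin was therefore shared by DCM and SPM, and no group received spermine alone. The study's methods give 3 mice per group in one place and 18 hearts mixed in pools of 6 in another, and no label ties a library to separate animals, so that p-values measure only the spread between these libraries, which may be technical.

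A dividing cell first copies its DNA, for which the MCM helicase, the sliding clamp PCNA and the enzymes that make nucleotides are needed, and then passes through mitosis under cyclin B and CDK1, the Aurora and Polo-like kinases and the spindle. Transcripts of the mitotic genes peak in G2 and M phase and are low in resting cells, whereas many replication genes also serve DNA repair and remain transcribed outside S phase. Adult cardiomyocytes have largely left the cell cycle, and most dividing cells of the adult heart are immune, endothelial and stromal cells. In whole tissue, fewer cells of a type and less RNA per cell cannot be told apart.

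Promoter sequences of 5 genes are printed. Ccnb1, Rrm2 and Eme1 had the largest absolute log2 fold changes among the members called in the comparisons below, and Cdk1 and Ccnb2 were added. Ccnb1 encodes cyclin B1, Rrm2 the regulatory subunit of ribonucleotide reductase, and Eme1 a subunit of a structure-specific endonuclease that acts on recombination intermediates. These genes were called as differentially expressed, but Eme1 passed the filter on low counts only through CK. Cdk1 and Ccnb2 encode the mitotic kinase and another B-type cyclin, and neither passed the test in any comparison. Each line runs 5′ to 3′ on the strand of the gene, from 120 bases before to 30 bases after its first base in RefSeq on GRCm38.p6. This first base differs from the gene positions given below, which are those of GENCODE M21. The whole Eme1 window lies inside the position given for Eme1, and the RefSeq start of Ccnb1 lies inside that given for Ccnb1. The windows are chr13:100786457-100786606 (minus strand) for Ccnb1, chr12:24708134-24708283 (plus strand) for Rrm2, chr11:94653714-94653863 (minus strand) for Eme1, chr10:69352883-69353032 (minus strand) for Cdk1 and chr9:70421525-70421674 (minus strand) for Ccnb2. Capitals mark the letters of the searched motifs on either strand, namely CCAAT (the NF-Y box, ATTGG on the other strand), TTTGAA (letters of the cell cycle homology region, TTCAAA on the other strand), and the E2F letters TTCGCGC or TTGGCGC or TTCCCGC or TTGCCGC.
Ccnb1: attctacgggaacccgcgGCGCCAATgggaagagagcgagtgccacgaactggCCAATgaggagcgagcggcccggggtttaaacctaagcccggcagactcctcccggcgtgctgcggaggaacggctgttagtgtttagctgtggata
Rrm2: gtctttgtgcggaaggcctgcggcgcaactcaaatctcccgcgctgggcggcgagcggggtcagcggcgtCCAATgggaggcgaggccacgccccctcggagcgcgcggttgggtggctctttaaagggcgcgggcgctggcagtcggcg
Eme1: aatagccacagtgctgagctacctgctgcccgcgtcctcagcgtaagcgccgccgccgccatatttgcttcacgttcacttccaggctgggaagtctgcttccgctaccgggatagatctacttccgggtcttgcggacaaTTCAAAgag
Cdk1: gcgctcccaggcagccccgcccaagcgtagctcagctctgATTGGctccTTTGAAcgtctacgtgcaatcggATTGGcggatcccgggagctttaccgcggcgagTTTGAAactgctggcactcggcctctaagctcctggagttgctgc
Ccnb2: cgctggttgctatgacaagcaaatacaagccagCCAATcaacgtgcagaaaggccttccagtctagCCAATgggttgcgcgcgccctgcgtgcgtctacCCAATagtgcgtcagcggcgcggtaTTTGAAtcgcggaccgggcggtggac

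The Cdk1 window held TTTGAA at 2 places, and the Ccnb2 window held CCAAT at 3 places together with TTTGAA. In Ccnb1, the E2F letters overlapped a CCAAT. Of the 39 genes, 34 had a promoter window in the RefSeq table. When 300 bases were searched, from 250 before to 50 after the gene start, CCAAT was present in 30 of the 34 windows (88.2%), compared to 37.9% of all 27025 windows. TTTGAA was present in 21 of the 34 (61.8%), compared to 18.1% of all windows. Both motifs were together in 19 of the 25 windows of genes outside the replication list (76%), in 1 of the 9 replication windows (11.1%), and in 7.12% of all windows. The E2F letters had the opposite distribution, with 6 of 9 replication windows (66.7%), 5 of the 25 other windows (20%), and 9.69% of all windows. These are matches of letters and not measured binding.

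Total counts were 29901300 to 39718680 per library. The tissue label was checked because the deposited extraction protocol speaks of retinas. All 7 cardiomyocyte markers in the table were detected in every library, with a summed level of 40760 to 55200 CPM, whereas the 8 retina markers in the table summed to 0.584 to 1.79 CPM and only Sag was detected in every library. Levels in CPM are counts relative to the library total after TMM scaling over the 9 libraries. SPM replicate 2 resembled a mixture of the other SPM libraries. Each combination of libraries was given its best-fitting share, over genes with at least 30 counts summed over the 3 libraries. The fit here was 44.2% of SPM replicate 1 and the rest of SPM replicate 3. The median squared deviation of genes from it was 0.906 times that of counting error. The smallest value among 251 other combinations of libraries was 2.40. It was kept, and values without it are given. Of all counts, the CK libraries held 13.7 to 16.2% from mitochondrially encoded genes, the DCM libraries 15.5 to 18.9% and the SPM libraries 21.01 to 21.09%.

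Levels differed widely among the cell cycle genes. Per length, on the FPKM scale, the median over the 38 genes was 0.512, while the median over all genes tested in DCM and CK was 4.43. Pcna was the highest with a mean of 27.2 FPKM over the 9 libraries, and 28 of the 38 genes lay below 1 FPKM. The replication genes had a median of 3.33 FPKM and the other 28 genes a median of 0.403 FPKM. At such low levels counting error is large, since 3 counts correspond to 0.0755 to 0.1003 CPM in these libraries before TMM scaling. Kif11, a spindle motor, had 3 counts in SPM replicate 1 and 0 in the other 8 libraries, the lowest level of all members.

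In DCM compared to CK, 3 of the 33 genes tested were downregulated, namely Tpx2, Top2a and Eme1, and no member was upregulated. This is 9.09% of the genes tested, where 4.34% of all 14402 genes tested were called in either direction, 2.31% of all lower and 2.03% of all higher. Eme1 passed the filter on low counts through CK alone, and without it 2 of 32 members were called (6.25%). Differentially expressed genes (DEGs) were called with the quasi-likelihood F-test of edgeR when the p adjusted by the Benjamini-Hochberg method lay below 0.05 and the groups differed by 1.5-fold or more. The log2 fold change was below 0 for 26 of the 33 genes and above 0 for 7, against 50.4% and 49.6% of all genes tested, with a median of -0.61 against -0.0025. The 3 DCM libraries lay below the 3 CK libraries without overlap for 11 members, compared to 14.6% of all genes tested. No member lay above without overlap, compared to 14.7% of all genes. A raw p below 0.05 was reached by 13 members, all lower in DCM, and by 24.6% of all genes.

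Tpx2 (ENSMUSG00000027469, chr2:152847964-152895321 on GRCm38, as are all gene positions here) encodes a spindle assembly factor that activates Aurora A. Its levels were 3.25, 3.18 and 2.27 CPM in the CK libraries, and 1.46, 1.36 and 1.41 CPM in the DCM libraries. All DCM libraries lay below all CK libraries and were close to one another. The log2 fold change was -1.04 (SE 0.26, adjusted p = 0.0244).

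Top2a (ENSMUSG00000020914, chr11:98992943-99024189) encodes topoisomerase II alpha, which untangles chromosomes before they separate. In CK libraries it reached 5.13, 4.69 and 3.25 CPM, and in DCM libraries 2.55, 2.03 and 2.88 CPM. The groups did not overlap, with the lowest CK library close to the highest DCM library. Top2a changed by -0.81 on the log2 scale (SE 0.24, adjusted p = 0.0486). The adjusted p was 0.0778 with all 9 libraries in one fit and 0.0684 with limma on log2(FPKM + 0.1).

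Eme1 (ENSMUSG00000039055, chr11:94644996-94653964) had few reads in every library. CK held 15, 12 and 11 counts, and DCM held 0, 1 and 3 counts. It therefore passed the filter on low counts only through CK. Its calls in both comparisons to CK rest on this selection by level and carry no support of their own. The fitted log2 fold change of -3.20 (SE 0.84, adjusted p = 0.0299) depends on the prior count. The ratio of the summed counts, 4 in DCM and 38 in CK, corrected for library size was 0.0938 (95% exact interval 0.0243 to 0.261, counting error only). Of its exon bases, 8.001% overlap Lrrc59 and 2.72% overlap Mrpl27 on the opposite strand, and use of strand in counting is not given in the sources used here.

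These calls depended on single libraries. Without any 1 of CK replicate 1, CK replicate 2, DCM replicate 1 or DCM replicate 2, edgeR called 0 members, with 7 to 12 members at a raw p below 0.05. Without DCM replicate 3, 1 member was called, and without CK replicate 3, 5 were called. Immune cell markers also differed between these libraries. The summed level of the 11 B cell markers in the table was 91.4, 72.7 and 39.7 CPM in CK replicates 1, 2 and 3, 43.3, 23.2 and 28.1 CPM in DCM replicates 1, 2 and 3, and 30.9, 37.7 and 39.1 CPM in SPM replicates 1, 2 and 3. Of 10 B cell markers tested, 2 were downregulated, of 12 macrophage markers 2, of 10 T and NK cell markers 1, and of 9 fibroblast markers 4. Of 5 neutrophil markers 2 were upregulated, as was 1 of 10 endothelial markers. The shares over all genes tested were 2.31% lower and 2.03% higher. The part of these cell types in the levels of the mitotic genes was not tested.

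**Figure D1:**
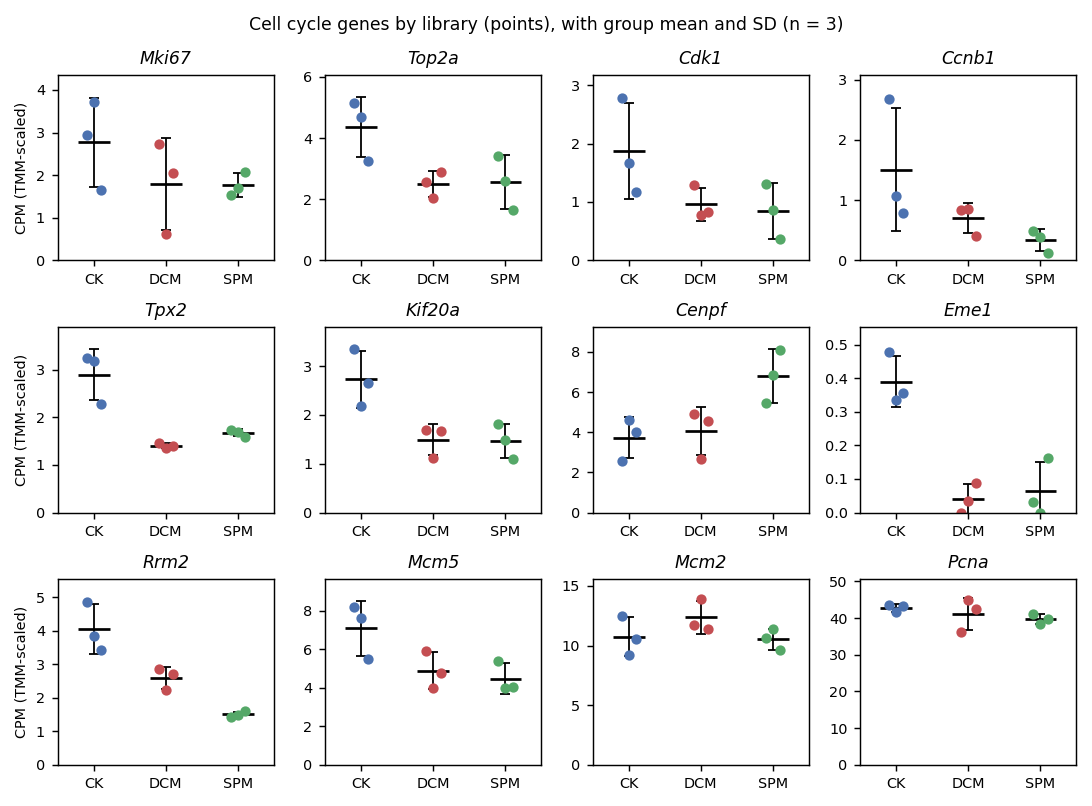
Levels of 12 cell cycle genes in each library, in CPM on linear axes that start at 0, grouped as CK, DCM and SPM. Points are the 3 replicates from left to right, and the horizontal lines and bars are the mean and SD, with bars that would pass below 0 ended at 0. Rrm2 steps down from CK to DCM to SPM without overlap, whereas Pcna lies at 36.2 to 44.9 CPM in all groups.

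Over all genes tested, called or not, the median log2 fold change in DCM lay below 0 for each list outside the replication genes. Among the 4 cyclin and kinase genes the median log2 fold change was -1.03. Ccna2, which encodes cyclin A2, was at 3.57, 1.79 and 1.23 CPM in CK and at 0.712 to 1.09 CPM in DCM, without overlap (log2 fold change -1.20, adjusted p = 0.0876). Cdk1 was at 2.77, 1.68 and 1.17 CPM in CK and at 1.29, 0.780 and 0.822 CPM in DCM, where the highest DCM library lay above the lowest CK library (log2 fold change -0.95, SE 0.39, adjusted p = 0.158). Both genes were highest in CK replicate 1. Racgap1, which encodes a component of the cytokinesis machinery, just missed the threshold with a log2 fold change of -0.79 and an adjusted p = 0.05 after rounding. Mki67, which encodes the proliferation antigen Ki-67, was at 2.93, 3.71 and 1.66 CPM in CK and at 2.73, 0.610 and 2.05 CPM in DCM. Its groups overlapped, with DCM replicate 2 far below the other DCM libraries (log2 fold change -0.61, SE 0.44, adjusted p = 0.437). The medians were -0.55 for kinases, checkpoint and passenger genes, -0.17 for the ubiquitin ligase genes, -0.79 for kinetochore, spindle and cytokinesis genes, and -0.81 for chromosome structure and repair. The called genes Tpx2, Top2a and Eme1 are part of the last 2 lists, and the last median is the value of Top2a itself.

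The replication genes lay on both sides of 0 in DCM. Of the 10, 5 had a log2 fold change below 0 and 5 above, with a median of 0.01 and a range from -0.64 to 0.20. The values farthest from 0 were on the lower side. Rrm2 (-0.64, adjusted p = 0.0879) and Mcm6 (-0.22, adjusted p = 0.264) were lower in DCM without overlap, Mcm5 (-0.54, adjusted p = 0.112) was lower with overlap, and no gene was higher without overlap. Pcna, the sliding clamp, was at 43.7, 41.7 and 43.3 CPM in CK and at 36.2, 44.9 and 42.4 CPM in DCM, with 41.2, 38.5 and 39.9 CPM in SPM (log2 fold change in DCM compared to CK -0.06, SE 0.09, adjusted p = 0.731). Mcm2, a subunit of the replicative helicase, was at 12.5, 9.24 and 10.6 CPM in CK and at 11.7, 13.9 and 11.4 CPM in DCM, with 10.6, 11.4 and 9.598 CPM in SPM (log2 fold change in DCM compared to CK 0.20, SE 0.14, adjusted p = 0.42). For both genes CK and DCM overlapped. edgeR called 0 of the 10 genes and DESeq2 called 0, each with 2 genes at a raw p below 0.05, which in edgeR were Rrm2 and Mcm5, both lower. Rrm2 was called with limma on log2(FPKM + 0.1), and Mcm5 was called without CK replicate 3. The summed level of the 10 genes was 152.0 ± 5.12 CPM over the CK libraries, compared to 148.2 ± 3.34 CPM over the DCM libraries (SD, n = 3). The other 28 genes summed to 50.4 ± 13.6 CPM and 33.7 ± 5.99 CPM. These sums are descriptions and carry no test.

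**Figure D2:**
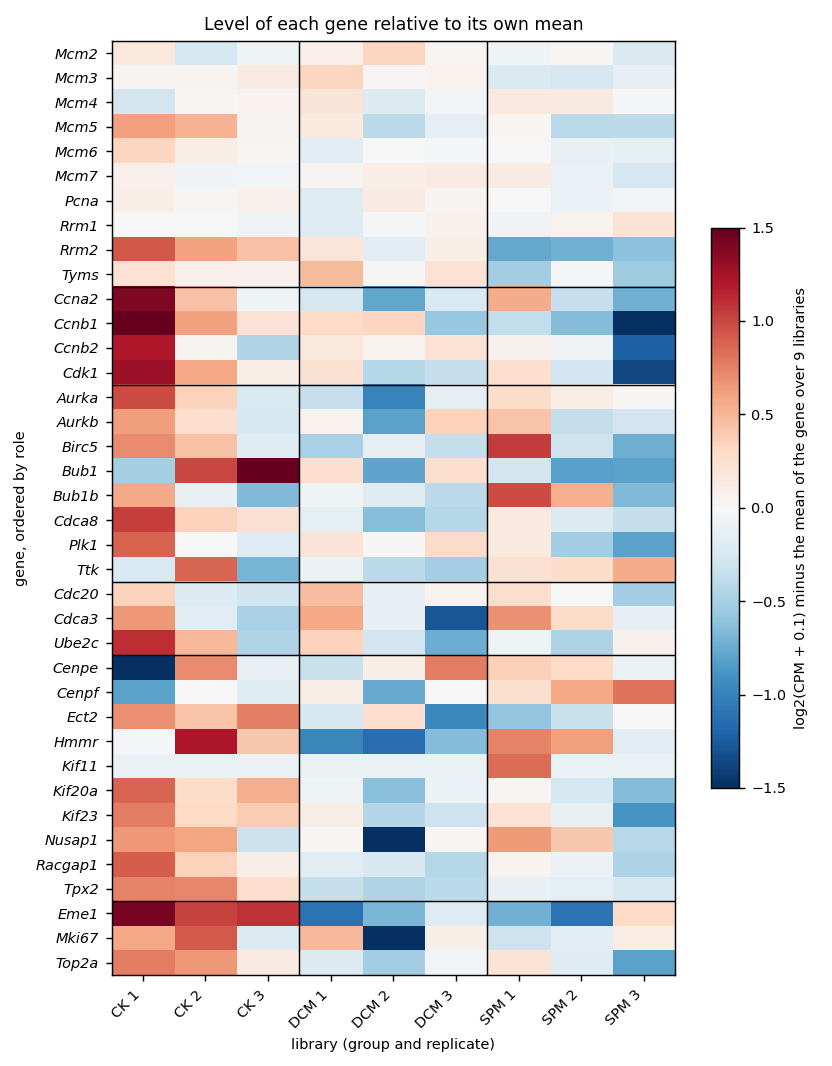
Colour shows log2(CPM + 0.1) of each cell cycle gene in each of the 9 libraries minus the mean of the gene over the libraries, with red above and blue below that mean and the scale ended at 1.5. Rows are the 38 genes by function and columns the libraries by group. CK replicate 1 holds the highest CK value for most rows outside the replication genes, and SPM replicate 1 the highest SPM value.

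Within groups, the highest and lowest library was often the same one for genes outside the replication list. CK replicate 1 was the highest CK library for 20 of the 27 such genes with counts in CK (74.1%, against 34.9% of all genes with counts), and CK replicate 3 was the lowest for 19 (70.4%, against 28.2%). In DCM, replicate 1 was highest for 14 of 27 (51.9%, against 33.8%), replicate 3 was highest for 10 (37%, against 33.8%), and replicate 2 was lowest for 17 (63%, against 37.2%). SPM replicate 1 was the highest for 22 of 28 (78.6%, against 39.6%) and SPM replicate 3 the lowest for 19 (67.9%, against 36.1%). Genes of 1 library are not replicates, and these shares carry no test. The summed level of these 28 genes was 64.5, 49.4 and 37.4 CPM in the CK libraries, 39.6, 27.6 and 33.7 CPM in the DCM libraries, and 46.8, 38.9 and 31.8 CPM in the SPM libraries. DCM replicate 1 lay above CK replicate 3, and the ranges of all 3 groups overlapped. The summed macrophage marker level was 1096, 1041 and 837 CPM in the CK libraries, 827, 702 and 703 CPM in the DCM libraries, and 1387, 1057 and 826 CPM in the SPM libraries. In each group the libraries had the same order from high to low as for the mitotic sum, in DCM by 702 against 703.2 CPM. The T and NK cell marker sum also had that order in each group. The B cell and erythroid marker sums had that order in CK and DCM, and the reverse order in SPM. The fibroblast marker sum had that order in DCM alone, the endothelial sum in CK alone and the neutrophil sum in SPM alone. The cardiomyocyte sum had it in no group. SPM replicate 2, which resembled a mixture of the other SPM libraries, lay between them in all of these sums. The part of these cells in the mitotic sum was not tested.

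**Figure D3:**
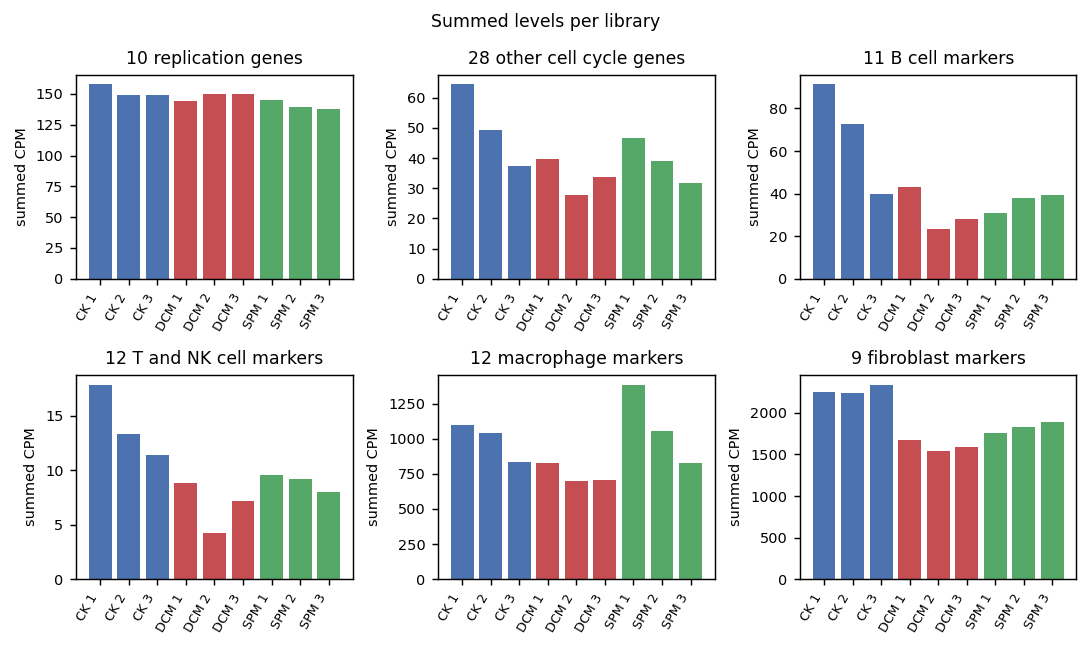
Bars, from 0, are the summed level in CPM of the 10 replication genes, the other 28 cell cycle genes, and B cell, T and NK cell, macrophage and fibroblast markers, with 1 bar per library (CK blue, DCM red, SPM green). The replication sum lies at 138 to 158 CPM in all libraries, and the sum of the other 28 genes ranges from 27.6 to 64.5 CPM.

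In SPM compared to DCM, Rrm2 was downregulated and Cenpf was upregulated, among 32 genes tested. Of all 14493 genes tested, 3.59% were called, 0.89% lower and 2.7% higher, and the 2 members are 6.25% of those tested. This comparison uses the same DCM libraries as the one above. The log2 fold change was below 0 for 16 members and above 0 for 16, with a median of -0.0020 against 0.0057 over all genes, of which 49.3% lay below and 50.7% above 0. The libraries did not overlap for 4 members that were lower in SPM (Mcm2, Mcm3, Rrm2 and Tyms, against 20.4% of all genes) and for 3 that were higher (Aurka, Cenpf and Tpx2, against 19.1%). A raw p below 0.05 was reached by 4 members and by 34.6% of all genes.

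Rrm2 (ENSMUSG00000020649, chr12:24708241-24714146) was at 2.85, 2.24 and 2.70 CPM in DCM and at 1.44, 1.48 and 1.59 CPM in SPM. The groups did not overlap, and the SPM libraries were close to one another. Rrm2 was lower by a log2 fold change of -0.78 (SE 0.22, adjusted p = 0.0387). It ranged from -0.88 to -0.72 when each of the 6 libraries was left out, and each time the gene was no longer called. Without SPM replicate 2 it was -0.77 (adjusted p = 0.174).

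Cenpf (ENSMUSG00000026605, chr1:189640606-189688086), which encodes a large protein of the kinetochore, was at 4.92, 2.68 and 4.58 CPM in DCM and at 5.44, 6.87 and 8.10 CPM in SPM. The groups did not overlap, with DCM replicate 2 the lowest. Cenpf had a log2 fold change of 0.74 (SE 0.23, adjusted p = 0.0494), and it was 0.53 (adjusted p = 0.163) when the GC content of genes was taken into account. The call was lost without any 1 of DCM replicates 1, 2 and 3 and SPM replicates 2 and 3, and without SPM replicate 2 the value was 0.74 (adjusted p = 0.143). Without SPM replicate 2 edgeR called 0 members, with 3 at a raw p below 0.05, and 56 genes in all were called instead of 521.

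The remaining mitotic genes lay on both sides of 0. Mki67 was at 1.53, 1.70 and 2.08 CPM in SPM, inside the range of the DCM libraries (log2 fold change -0.03, SE 0.42, adjusted p = 0.966). Top2a was at 3.42, 2.60 and 1.66 CPM in SPM and overlapped DCM (log2 fold change 0.05, SE 0.28, adjusted p = 0.918). With standard errors of this size, changes of either sign remain within the error of these values. Tpx2 was at 1.74, 1.70 and 1.59 CPM in SPM, above all DCM libraries, with a log2 fold change of 0.26 (adjusted p = 0.479). The medians were -0.32 for cyclins and CDK, 0.46 for kinases, checkpoint and passenger genes, 0.01 for ubiquitin ligase genes, 0.14 for kinetochore, spindle and cytokinesis genes and -0.14 for the replication genes, of which 8 of 10 lay below 0. In the same comparison 6 of 12 macrophage markers and 6 of 7 neutrophil markers were upregulated, and 4 of 6 erythroid markers and 1 of 10 endothelial markers were downregulated, with 1 erythroid marker upregulated. Over all genes tested, 0.89% were called lower and 2.7% higher.

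**Figure D4:**
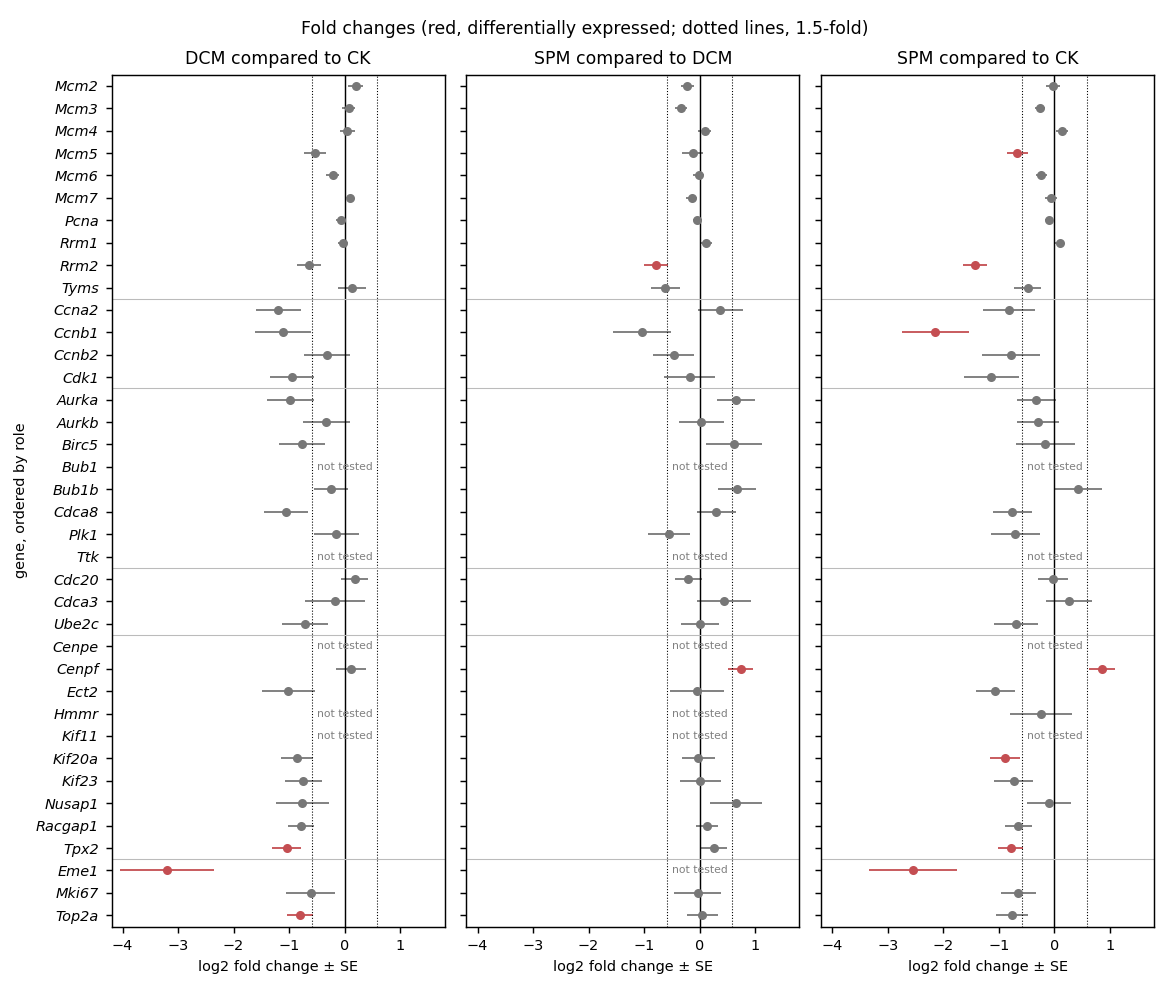
log2 fold changes of the tested cell cycle genes in DCM compared to CK, SPM compared to DCM and SPM compared to CK, with standard errors as bars and genes ordered by function. Red points passed the test, grey points did not, and dotted lines mark a change of 1.5-fold. Most mitotic genes lie left of 0 in both comparisons to CK and around 0 in SPM compared to DCM, and the comparisons share libraries.

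In SPM compared to CK, 6 of 34 members were downregulated, namely Rrm2, Mcm5, Ccnb1, Kif20a, Tpx2 and Eme1, and Cenpf was upregulated. These are 20.6% of the members tested, where 9.21% of all 14574 genes tested were called, 4.12% lower and 5.08% higher. Eme1 again passed the filter through CK alone, and without it 6 of 33 members were called (18.2%). The SPM libraries are those of the comparison with DCM, and the CK libraries those of the comparison of DCM with CK. The log2 fold change was below 0 for 29 of 34 and above 0 for 5, against 49.8% and 50.2% of all genes, with a median of -0.57 against 0.0022. The libraries did not overlap for 14 members that were lower and 1 that was higher in SPM, against 23.4% and 22.7% of all genes. A raw p below 0.05 was reached by 13 members, 12 of them lower, and by 40.9% of all genes.

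Rrm2 was at 4.88, 3.85 and 3.44 CPM in CK and at 1.44 to 1.59 CPM in SPM, without overlap. The log2 fold change was -1.43 (SE 0.21, adjusted p = 0.00271), from -1.54 to -1.28 when each library was left out, and the gene was called each time. Without SPM replicate 2, Rrm2 was the 1 member called (log2 fold change -1.42, adjusted p = 0.0199). With the values above, its 3 groups were separate in all comparisons, although DCM compared to CK did not pass the test (-0.64, SE 0.22, adjusted p = 0.0879).

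Ccnb1 (ENSMUSG00000041431, chr13:100778650-100786570) was at 2.68, 1.06 and 0.779 CPM in the CK libraries. It was at 0.833, 0.848 and 0.411 CPM in the DCM libraries, and at 0.489, 0.386 and 0.130 CPM in the SPM libraries. All SPM libraries lay below all CK libraries, and CK replicate 1 stood far above CK replicates 2 and 3. Its log2 fold change in SPM compared to CK was -2.15 (SE 0.60, adjusted p = 0.0298), and without CK replicate 1 it was -1.45 (adjusted p = 0.105). The call was also lost without CK replicate 2, SPM replicate 2 or SPM replicate 3. In DCM compared to CK it was -1.11 (SE 0.51, adjusted p = 0.198) and in SPM compared to DCM -1.03 (SE 0.52, adjusted p = 0.188).

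Mcm5 (ENSMUSG00000005410, chr8:75109569-75128439), a subunit of the replicative helicase, was at 8.19, 7.65 and 5.49 CPM in CK, at 5.903, 4 and 4.78 CPM in the DCM libraries, and at 5.41, 3.98 and 4.03 CPM in the SPM libraries. SPM lay below CK by a narrow margin, and DCM overlapped both. Compared to CK, Mcm5 in SPM had a log2 fold change of -0.67 (SE 0.20, adjusted p = 0.0362), and the adjusted p was 0.0529 when GC content was taken into account. Of the 6 helicase subunits only Mcm5 was called by edgeR, and the other 5 were not tested against it. Kif20a (ENSMUSG00000003779, chr18:34624613-34633277) encodes a motor of cytokinesis. Its CK libraries held 3.35, 2.18 and 2.66 CPM, its DCM libraries 1.69, 1.12 and 1.67 CPM, and its SPM libraries 1.803, 1.48 and 1.11 CPM, so that both streptozotocin groups lay below CK. Kif20a had a log2 fold change of -0.89 (SE 0.27, adjusted p = 0.0405) in SPM and -0.86 (SE 0.29, adjusted p = 0.079) in DCM. Of its exon bases, 29.3% overlap Cdc23 on the opposite strand.

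Tpx2 in SPM, at the levels given above, also lay below all CK libraries, with a log2 fold change of -0.79 (SE 0.23, adjusted p = 0.0331). Eme1 held 1, 0 and 5 counts in SPM, and its count ratio to CK, 6 against 38, was 0.153 (95% exact interval 0.0529 to 0.365). Cenpf was at 2.58, 4.61 and 4.03 CPM in CK, below all SPM libraries (log2 fold change 0.86, SE 0.24, adjusted p = 0.0284). Leaving out SPM replicate 2 ended the calls of all members but Rrm2, and without CK replicate 1 or SPM replicate 3 the count of members called was 2, and without CK replicate 2 it was 3. Top2a had a log2 fold change of -0.76 (SE 0.29, adjusted p = 0.079) and Cdk1, at 1.31, 0.867 and 0.358 CPM in SPM, of -1.14 (SE 0.49, adjusted p = 0.114). In the same comparison 5 of 11 B cell, 1 of 10 T and NK cell, 4 of 6 erythroid, 3 of 9 fibroblast and 2 of 10 endothelial markers were downregulated. Upregulated were 7 of 8 neutrophil, 1 of 12 macrophage, 1 of 6 erythroid and 1 of 10 endothelial markers. Of all genes tested, 4.12% were called lower and 5.08% higher. The part of these cell types in the result was not tested.

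Some members were too low for the test within a pair of groups, and their raw counts are given. Hmmr, which encodes a spindle protein, held 6, 21 and 9 counts in CK. Its DCM libraries held 2, 1 and 3 counts and its SPM libraries 13, 11 and 5, so that the DCM libraries were all below the others. The count ratio of DCM to CK was 0.149 (95% exact interval 0.0512 to 0.356, counting error only). Hmmr passed the filter in SPM compared to CK (log2 fold change -0.24, adjusted p = 0.776). With all 9 libraries in one edgeR fit it was tested throughout, and was called lower in DCM compared to CK (-2.56, adjusted p = 0.0355) and higher in SPM compared to DCM (2.33, adjusted p = 0.0472). It was also called higher in SPM compared to DCM without SPM replicate 3. In these fits Hmmr passed the filter on low counts only through libraries outside DCM. The calls therefore rest on a selection by level and carry no support of their own. Bub1, a spindle checkpoint kinase, held 2, 13 and 20 counts in the CK libraries, 7, 1 and 6 in the DCM libraries, and 3, 1 and 1 in the SPM libraries. The ratio was 0.357 (0.177 to 0.680) in DCM and 0.139 (0.0424 to 0.355) in SPM compared to CK, and CK replicate 1, with its 2 counts, was as low as the SPM libraries.  Ttk, another checkpoint kinase, held 4, 14 and 2 counts in CK, 6, 3 and 3 in DCM, and 7, 7 and 9 in SPM. Its SPM libraries lay above all DCM libraries, and CK overlapped both groups. Cenpe, a kinetochore motor, held 0, 15 and 6 counts in CK, 6, 7 and 15 in DCM, and 10, 9 and 6 in SPM. Its summed counts were 21 in CK, 28 in DCM and 25 in SPM, and all groups overlapped.

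A second list of 110 other cell cycle genes, of which 106 had a row in the table, shows what surrounds the members. In DCM compared to CK, 4 of 93 tested were called (4.3%, compared to 4.34% of all genes), and in SPM compared to CK, 8 of 95 (8.42%, compared to 9.21%). These shares of calls are near those of all genes. Of 90 tested in SPM compared to DCM, edgeR called 0, compared to 3.59% of all genes, and DESeq2 called 1, Smc4. A raw p below 0.05 in edgeR was reached by 23 of the 90, compared to 34.6% of all genes. The log2 fold change was below 0 for 75.3% of those tested in DCM compared to CK, against 50.4% of all genes. It was below 0 for 45.6% in SPM compared to DCM, against 49.3%, and for 61.1% in SPM compared to CK, against 49.8%. The median log2 fold changes were -0.18, 0.02 and -0.10 in DCM compared to CK, SPM compared to DCM and SPM compared to CK. For the other mitosis genes they were -0.43, 0.10 and -0.18, and for the other replication genes -0.11, 0.02 and -0.09.

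Cdkn1a, which encodes the CDK inhibitor p21, was at 56.5, 64.9 and 83.3 CPM in the CK libraries. It was at 114.6, 152.2 and 145.5 CPM in the DCM libraries, and at 106.1, 114.8 and 125.0 CPM in the SPM libraries. All streptozotocin libraries lay above all CK libraries. Its log2 fold change was 1.01 (SE 0.14, adjusted p = 0.000552) in DCM and 0.76 (SE 0.13, adjusted p = 0.00484) in SPM, both compared to CK, and -0.25 (SE 0.11, adjusted p = 0.128) in SPM compared to DCM. Tfdp2, a dimerization partner of E2F factors, was at 71.7, 79.7 and 95.6 CPM in the CK libraries. It was at 135.8, 141.4 and 153.0 CPM in the DCM libraries, and at 196.4, 174.4 and 155.5 CPM in the SPM libraries. No library of one group overlapped with another group. Compared to CK, Tfdp2 was upregulated by 0.80 on the log2 scale (adjusted p = 0.000327) in DCM and by 1.09 (adjusted p = 0.00107) in SPM. It was 0.30 higher in SPM compared to DCM (adjusted p = 0.0489), under the limit of 1.5-fold. Tfdp1, another such partner, was lower than CK without overlap in both DCM and SPM, also under that limit. Its log2 fold change was -0.26 in DCM (adjusted p = 0.113) and -0.26 in SPM (adjusted p = 0.0329).

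Uhrf1, which couples replication to DNA methylation, was at 4.30, 2.23 and 2.47 CPM in CK and 1.03, 1.32 and 0.939 CPM in DCM, without overlap. Its SPM libraries, at 2.26, 1.93 and 1.497 CPM, lay above all DCM libraries and overlapped CK. Uhrf1 was downregulated in DCM compared to CK (log2 fold change -1.45, SE 0.32, adjusted p = 0.0135). Spc24, a kinetochore subunit, was at 5.19, 5.16 and 4.51 CPM in the CK libraries, 3.25, 3.46 and 1.97 in the DCM libraries and 1.93, 1.67 and 1.59 in the SPM libraries, without overlap between any groups. It was downregulated in DCM compared to CK (log2 fold change -0.78, adjusted p = 0.0482) and in SPM compared to CK (-1.52, adjusted p = 0.00129). In DCM compared to CK, the Spc24 call was lost without any 1 of the 6 libraries (log2 fold change -0.92 to -0.56), and the Uhrf1 call without CK replicate 1 (-1.10, adjusted p = 0.0613) or DCM replicate 3 (-1.35, adjusted p = 0.0597).

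E2f7, an atypical E2F repressor, was at 1.43, 1.45 and 0.844 CPM in the CK libraries, 1.26, 1.15 and 0.646 in the DCM libraries and 0.764, 0.353 and 0.325 in the SPM libraries. It was downregulated in SPM compared to CK (log2 fold change -1.36, adjusted p = 0.0462). Espl1, the separase that cleaves cohesin, was at 2.93, 2.99 and 2.63 CPM in the CK libraries, 2.22, 1.46 and 2.29 in the DCM libraries and 2.08, 1.45 and 1.37 in the SPM libraries, and was also downregulated in SPM compared to CK (-0.80, adjusted p = 0.037). Pimreg, at 1.91, 1.45 and 0.390 CPM in the CK libraries, 0.908, 0.915 and 0.499 in the DCM libraries and 0.306, 0.386 and 0.130 in the SPM libraries, was downregulated in the same comparison (-2.18, adjusted p = 0.0333). All 3 genes were lower in every SPM library than in every CK library. Lin52, a subunit of the DREAM complex, was at 10.6, 9.24 and 10.6 CPM in the CK libraries, 15.6, 13.2 and 15.3 in the DCM libraries and 17.2, 17.2 and 15.3 in the SPM libraries. Smc4, a condensin subunit, was at 3.57, 5.72 and 5.36 CPM in the CK libraries, 6.51, 3.36 and 4.17 in the DCM libraries and 6.69, 7.65 and 8.52 in the SPM libraries. Both were upregulated in SPM compared to CK (0.71, adjusted p = 0.00194 for Lin52, and 0.64, adjusted p = 0.0393 for Smc4), with every SPM library above every CK library, and both calls were lost when GC content was taken into account, as were those of E2f7 and Espl1. The Lin52 call was kept when any 1 library was left out. Without SPM replicate 2 the values were -1.18 (adjusted p = 0.191) for E2f7, -0.72 (adjusted p = 0.169) for Espl1, -2.49 (adjusted p = 0.0785) for Pimreg and 0.64 (adjusted p = 0.119) for Smc4, and each of these 4 calls was also lost without CK replicate 1 or SPM replicate 3. The G1 cyclins Ccnd1 and Ccnd2 did not pass the test in any comparison. The transcription factors E2f1, Foxm1 and Mybl2 did not either. Mybl2 lay at 0.102 to 0.454 CPM in DCM and at 0.458 to 1.01 CPM in SPM, without overlap (log2 fold change 1.22, adjusted p = 0.141).

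**Figure D5:**
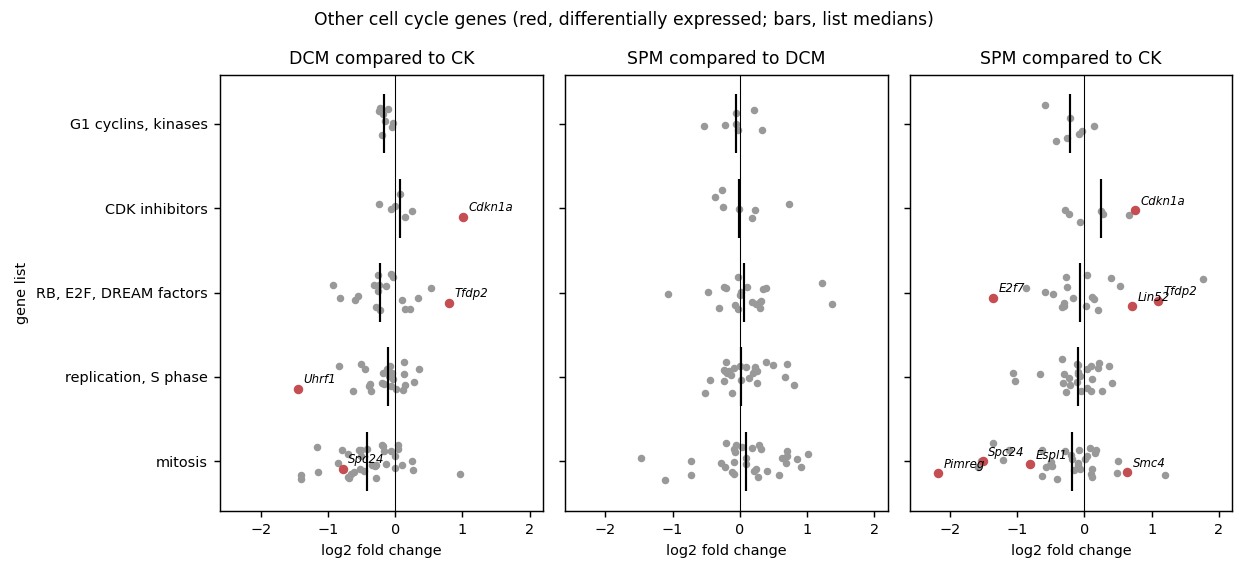
log2 fold changes of the other cell cycle genes tested, by gene list on the vertical axis, in DCM compared to CK, SPM compared to DCM and SPM compared to CK, which share libraries. Each point is a gene, red points with names passed the test, and vertical bars are list medians. The mitosis genes have medians of -0.43, 0.10 and -0.18, and Cdkn1a and Tfdp2 lie right of 0 in both comparisons to CK.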

How the data were processed

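RNA was taken, per the labels, from heart tissue of CK, DCM and SPM mice, with 3 libraries per group, and according to the methods libraries were sequenced on an Illumina instrument after poly(A) selection and rRNA depletion. The authors deposited raw counts per gene and FPKM values for 22851 genes. The processing notes name Bowtie 0.12.2 and the builds mm8 and mm9 without a role. For the gene counting, the tool, annotation and use of strand were not given in the sources used here. Deposited FPKM equalled the count divided by a gene length and by the library total, with a largest relative deviation of 6.8e-13. Identifiers were named with GENCODE M21, which held 22820 of them.

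For each pair of groups, the counts of its 6 libraries were filtered with filterByExpr (minimum count 10), scaled by TMM and tested with the quasi-likelihood F-test of edgeR 4.0.16 in R 4.3.3, and p-values were adjusted over all genes tested. CPM values use TMM factors over the 9 libraries. Standard errors are the log2 fold change divided by the root of the F statistic. Intervals for counts are exact and cover counting error only. Alternatives were DESeq2 1.42.0, other scaling and filters, a joint fit of all libraries, the replicate number as a block, a GC offset, limma 3.58.1 on log2(FPKM + 0.1), and leaving out each library. The members, gene lists and tests were chosen with earlier results of these data known. Values in every library are given for members called in any comparison and for Mki67, Top2a, Cdk1, Ccnb1, Pcna and Mcm2, and further genes were named after their values were seen. Total counts of 29901300 to 39718680 set the precision, with 3 counts equal to at most 0.1003 CPM before TMM scaling. Labels carry no batch. Prc1, Cdt1, Gins2, Tk1 and Kif18b were not analysed here.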

Additional observations from a re-analysis of the deposited data

How the results depend on the processing

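Of the 12 calls of members, DESeq2 kept the 11 for which it gave an adjusted p, RLE scaling kept 12 of 12, no filter on low counts 11 of 12, a minimum of 1 CPM in 3 libraries 9 of the 9 still tested, all libraries in one fit 10, the GC offset 9 and limma on log2(FPKM + 0.1) 9. The 12 calls include those of Eme1, which rest on a selection by level. Only Rrm2 in SPM compared to CK was called in every fit that left out 1 library. In DCM compared to CK, 5 members were called with DESeq2 and 5 without the filter on low counts, instead of 3. In SPM compared to DCM, 1 member was called with the GC offset and 1 with limma, instead of 2, while the calls over all genes went from 521 to 134 and 386. Leaving out each library gave 0 to 5 members in DCM compared to CK, 0 to 2 in SPM compared to DCM and 1 to 6 in SPM compared to CK. Over all alternatives the median log2 fold change of the members ranged from -0.72 to -0.33 in DCM compared to CK, from -0.17 to 0.13 in SPM compared to DCM and from -0.74 to -0.29 in SPM compared to CK. The causes of these differences were not tested.

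Deviations from the group means correlated at -0.07 to 0.21 for the 9 pairs of the same replicate number and at -0.28 to 0.22 for the 18 others. These values show no pairing by replicate number, but with 3 libraries per group they cannot exclude one. With a replicate block, 1 member was called in DCM compared to CK, 1 in SPM compared to DCM and 9 in SPM compared to CK, and 8 of the 12 calls were kept.

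Genes near 0 that were not called changed sign. In SPM compared to DCM, the log2 fold change of Mki67 was 0.13 with the replicate block, 0.0612 with limma and -0.43 to 0.39 over the libraries left out. Top2a was at -0.17 with the GC offset and at -0.23 to 0.28 over the libraries left out, Cdk1 at -0.66 to 0.18 and Pcna at -0.13 to 0.0299. Pcna in DCM compared to CK ranged from -0.13 to 0.0308. Mcm2 in SPM compared to CK was at 0.0521 with the GC offset and ranged from -0.13 to 0.0852. Depth limits genes such as Eme1, Hmmr and Bub1, whose groups held few counts.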
